A study of Mus musculus with 8 samples.

Results

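The matrix genes measured here are the 57 of 19945 genes in the count table whose symbols are collagen alpha chains (Col, a number, a, a number) or laminin chains (*Lama*, *Lamb* or *Lamc* and a number), together with the nidogens *Nid1* and *Nid2*, perlecan *Hspg2*, fibronectin *Fn1* and *Sparc*. They were followed across the cell classes of islets from mice given an oral inhibitor of focal adhesion kinase (FAKi, PF562271, 50 mg/kg 2 times a day for 3 weeks) or its vehicle, with the islets taken 10 days after the last dose. The mice were wild type, and islets of 5 mice were pooled for each library. Mice of the study as a whole were 6 to 12 weeks old when its experiments began, and the sequenced mice have no separate age given. There was 1 library of each treatment, so treatment, mouse pool and library preparation cannot be told apart, no p-value is given, and every interval (95%, exact) covers counting error only.

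Collagens and laminins are trimers of chains encoded by separate genes. Fibrillar collagens such as types I and III form the fibres of connective tissue, whereas collagen IV and laminins each form a sheet-like network in the basement membrane, and nidogens and perlecan join these networks. In the islet the basement membrane lies along the capillaries and around the endocrine cluster, and β-cells contact it through integrins, which signal through focal adhesion kinase. Type VI collagen forms beaded filaments at the border between basement membranes and fibrils, fibronectin is an adhesive glycoprotein, and Sparc is a secreted collagen-binding protein.

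Promoter windows are shown for a basement membrane pair and a fibrillar pair that were abundant in different classes. RefSeq windows on GRCm38.p6, from 250 bases before to 50 after the transcript start, were held for 42 of the 57 genes. *Col4a1* (chr8:11312777-11313076, minus strand) and *Col4a2* (chr8:11312555-11312854, plus strand) start 21 bases apart on opposite strands, and capitals mark the 78 bases present in both windows. *Col1a2* (chr6:4505368-4505667, plus strand) and *Col3a1* (chr1:45311288-45311587, plus strand) are shown with matches in capitals, on either strand, to the TATA box letters TATAAA, the letters CCAAT or the GC box letters GGGCGG.
Col4a1: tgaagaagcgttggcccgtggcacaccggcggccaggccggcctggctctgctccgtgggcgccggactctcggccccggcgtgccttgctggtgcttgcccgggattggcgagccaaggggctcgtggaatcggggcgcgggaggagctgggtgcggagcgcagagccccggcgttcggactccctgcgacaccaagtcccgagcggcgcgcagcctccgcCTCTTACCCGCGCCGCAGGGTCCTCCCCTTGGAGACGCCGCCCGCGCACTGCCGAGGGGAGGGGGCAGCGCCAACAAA
Col4a2: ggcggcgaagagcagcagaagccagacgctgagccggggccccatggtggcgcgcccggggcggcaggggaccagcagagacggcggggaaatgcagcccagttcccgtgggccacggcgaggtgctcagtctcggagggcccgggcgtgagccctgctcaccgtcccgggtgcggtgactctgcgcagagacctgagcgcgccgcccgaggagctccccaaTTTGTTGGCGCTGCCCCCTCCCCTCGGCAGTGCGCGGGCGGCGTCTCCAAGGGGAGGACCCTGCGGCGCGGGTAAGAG
Col1a2: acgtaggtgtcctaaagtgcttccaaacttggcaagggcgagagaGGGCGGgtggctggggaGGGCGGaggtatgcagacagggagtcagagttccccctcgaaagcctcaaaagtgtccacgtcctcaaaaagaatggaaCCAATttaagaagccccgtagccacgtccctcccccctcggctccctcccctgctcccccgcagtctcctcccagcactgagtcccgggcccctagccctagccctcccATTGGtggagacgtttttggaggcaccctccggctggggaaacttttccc
Col3a1: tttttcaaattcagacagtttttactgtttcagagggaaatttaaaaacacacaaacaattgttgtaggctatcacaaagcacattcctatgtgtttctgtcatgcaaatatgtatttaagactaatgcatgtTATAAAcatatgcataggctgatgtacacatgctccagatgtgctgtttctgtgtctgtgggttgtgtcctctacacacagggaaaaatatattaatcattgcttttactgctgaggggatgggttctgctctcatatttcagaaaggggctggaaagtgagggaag
The *Col1a2* window held CCAAT 109 bases before the start and, on the reverse strand, at the start, and GGGCGG 205 and 188 bases before it, whereas the *Col3a1* window held TATAAA 117 bases before the start. The *Col4a1* window held CCAAT on the reverse strand 145 bases before its start, and the same letters lay 32 bases before the *Col4a2* start. GGGCGG lay 9 bases after the *Col4a1* start on the reverse strand, and in the *Col4a2* window 192 bases before and 7 after the start and, on the reverse strand, 48 before. Of the 42 genes, 5 held TATAAA, 14 held CCAAT and 27 held GGGCGG, against 13.6%, 37.4% and 35.7% of all 32851 windows. These are letter matches and not measured binding sites.

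The libraries held 3776 vehicle and 3183 FAKi cells with medians of 10101.5 and 13688 unique molecular identifiers (UMIs, each counting 1 captured transcript end), in 12 cell classes that the authors deposited. The B-cell class (113 and 9 cells) was left out of comparisons. Lists of β, α, δ, acinar, ductal, endothelial, macrophage and T-cell markers were each highest in the class of that name in both libraries. Mesenchymal markers were higher in pericytes (22251 and 15055 CPM, the gene's UMIs scaled to 1000000 UMIs of the class, in vehicle and FAKi) than in fibroblasts (12723 and 9674), *Ppy* was highest in the δ class, and the T-cell markers in the FAKi T-cell class (178 CPM, 28 cells) were far below those in vehicle (2221 CPM). Insulin UMIs took 7.65% of the UMIs of the T-cell class in vehicle and 42.6% in FAKi. Fibroblasts, pericytes and endothelial cells together made up 25.0% of vehicle and 12.4% of FAKi cells, and 4 barcodes occurred in both libraries.

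Across all classes, the 57 genes took 134210 UMIs in vehicle (0.226%) but 33944 in FAKi (0.0587%). Fibroblasts, pericytes and endothelial cells held 91.6% and 83.6% of these UMIs. The fibroblast share fell from 6.99% to 1.98% of cells between the libraries and endothelial cells from 14.4% to 8.45%, so the library totals moved with the cells sampled, and levels are given below within each class. Because the assay counts 3′ ends, CPM was not divided by gene length, and the capture of different genes may differ.

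Of the 57 genes, 44 had at least 100 UMIs over both libraries, 13 had fewer and none was at 0. In vehicle islets fibroblasts had the highest CPM for 25 of the 44 (56.8%), against 7.44% of all 14090 genes past that minimum. Endothelial cells led for 9 (20.5%, against 15.1%), pericytes for 5 (11.4%, against 14.7%) and ductal cells for 3 (6.82%, against 23.4%). α-cells and δ-cells each led for 1 (2.27%, against 7.47% and 7.59%). The leading class was the same in the FAKi library for 36 of the 44, and the share of all genes that kept theirs was not computed. Some leads were near ties, among them *Lama5* (1.00-fold over the second class) and *Col15a1* (1.02-fold) in vehicle.

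The classes divided by type of matrix. Basement membrane genes (collagen IV, laminins, nidogens and perlecan) summed to 5306 CPM in vehicle endothelial cells (5232 to 5380), 3282 in pericytes, 2995 in fibroblasts and 559 in ductal cells. In FAKi islets the sums were 5184.5, 2795, 2116.5 and 525 CPM, in the same order. Fibrillar collagens ran in another order, with 16817 CPM in vehicle fibroblasts, 4896 in pericytes and 107 in endothelial cells, and 10853, 2996 and 9.98 CPM in FAKi. Fibroblasts held 88.7% and 79.6% of all fibrillar UMIs of the vehicle and FAKi libraries, and endothelial cells held 57.2% and 63.5% of all basement membrane UMIs.

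The division was also seen cell by cell. The median vehicle fibroblast had 14413 CPM of fibrillar collagens and the median pericyte 2980, and in FAKi islets these medians were 10018 and 1514. A fibrillar collagen UMI was found in 262 of 264 vehicle and 62 of 63 FAKi fibroblasts. The median endothelial cell had 5195 and 5363 CPM of basement membrane genes in vehicle and FAKi, close to the class sums, and the median ductal cell had 497 and 496.

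Per fibrillar UMI, endothelial cells held 49.8 basement membrane UMIs in vehicle and 519 in FAKi, ductal cells 8.75 and 8.03, pericytes 0.670 and 0.933, and fibroblasts 0.178 and 0.195. The endothelial fibrillar value rested on few cells, since 319 of its 403 vehicle UMIs lay in 1 cell, and its sum was 22.5 CPM without it. T cells had 207 CPM of fibrillar collagens in vehicle, of which 178 of 204 UMIs lay in 1 cell. In ductal cells the list was mostly *Col27a1* (322 of 399 vehicle and 130 of 142 FAKi UMIs).

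**Figure D1:**
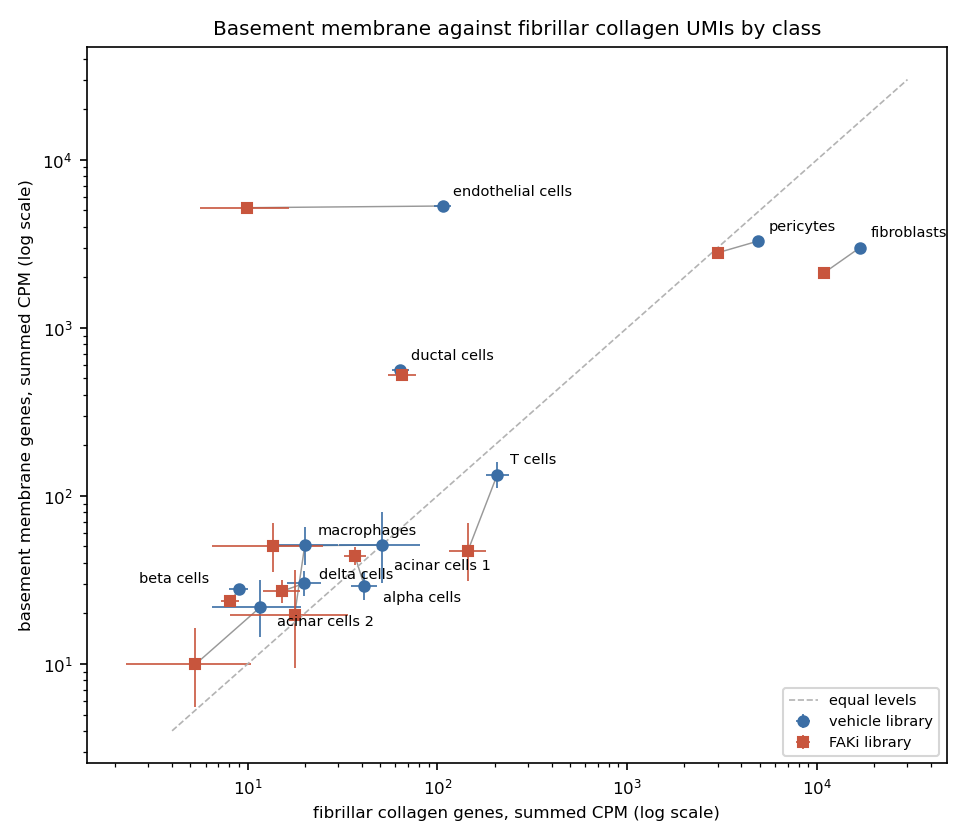
Summed basement membrane CPM against summed fibrillar collagen CPM for each class, on log axes, with grey lines joining the vehicle point to the FAKi point. Endothelial cells lie highest on the basement membrane axis (5306 and 5184.5 CPM) and fibroblasts farthest along the fibrillar axis (16817 and 10853 CPM).

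All but 1 of the 8 fibrillar genes past the minimum were highest in fibroblasts in vehicle. *Col1a2* and *Col1a1*, the chains of collagen I, reached 5841 and 4146 CPM in vehicle fibroblasts and 3586 and 2507 in FAKi fibroblasts, against 931 and 694 in vehicle pericytes. *Col3a1*, the only chain of collagen III, reached 5691 CPM in vehicle and 3877 in FAKi fibroblasts, and 2844 and 1675 in pericytes. Pericytes had 4.10 and 4.29 *Col3a1* UMIs per *Col1a1* UMI against 1.37 and 1.55 in fibroblasts. The collagen V chains, which join collagen I fibrils and limit their width, were lower, at 462 (*Col5a2*), 445 (*Col5a1*) and 168 CPM (*Col5a3*) in vehicle fibroblasts and 337, 361 and 115 in FAKi. *Col27a1*, a fibrillar collagen known from cartilage, had near-equal levels in fibroblasts (56.8 and 58.2 CPM) and ductal cells (51.5 and 59.9). *Col11a2*, also known from cartilage, was at most 3.0 CPM in any class compared, its value in FAKi α-cells.

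Collagen IV held an abundant pair of chains and 4 minor chains, which in vehicle had different leading classes. *Col4a1* and *Col4a2*, the chains of the common network, reached 1948 and 1139 CPM in vehicle endothelial cells and 1922 and 1081 in FAKi endothelial cells. Pericytes followed with 1283 and 639 CPM in vehicle, and fibroblasts had 650 CPM of *Col4a1* in vehicle and 471 in FAKi. The chains of the specialised networks were highest in vehicle fibroblasts, *Col4a5* at 152 CPM, *Col4a4* at 90.5, *Col4a3* at 55.2 and *Col4a6* at 38.1. In FAKi islets *Col4a5* and *Col4a6* were still highest there (99.2 and 15.4 CPM), whereas *Col4a4* was highest in pericytes (109 CPM) and *Col4a3* in endothelial cells (51.2 CPM).

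Collagens XV and XVIII are proteoglycans of the basement membrane zone that release antiangiogenic fragments. *Col15a1* was shared by fibroblasts (486 and 352 CPM in vehicle and FAKi) and endothelial cells (474 and 494). *Col18a1* was highest in pericytes, at 219 CPM in vehicle and 125 (84.8 to 177) in FAKi, where fibroblasts were at 108 (82.8 to 138) and led as a mean over cells.

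The laminin chains were spread over 4 classes. *Lama4*, the alpha chain of the main endothelial laminin, was 224 CPM in vehicle and 218 in FAKi endothelial cells. *Lamb1* and *Lamc1*, the common beta and gamma chains, were also highest there, at 278 and 245 CPM in vehicle and 287 and 232 in FAKi. *Lama2*, the alpha chain known from muscle and nerve, was highest in fibroblasts (307 and 219 CPM). *Lamb2*, a beta chain that can replace *Lamb1*, was highest in pericytes (332 and 282 CPM), as was *Lamc3* (32.6 and 20.1 CPM).

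Among the 11 classes compared, the epithelial beta chain *Lamb3* was highest in ductal cells (37.8 and 25.8 CPM). Vehicle B cells, not compared, were at 37.9 CPM and vehicle T cells at 25.3. A *Lamb3* UMI was found in 33.7% of vehicle and 23.1% of FAKi ductal cells, whereas it was 0.06 CPM in vehicle β-cells and had no UMI in FAKi β-cells. *Lama3*, an epithelial alpha chain, was higher in endothelial cells (80.1 and 92.5 CPM) than in ductal cells (41.3 and 25.3). *Lama5* was nearly equal in ductal (66.3 and 59.4 CPM) and endothelial cells (66.1 and 57.2).

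Nidogens and perlecan, the linkers, were mainly endothelial and fibroblast genes. *Hspg2* was 641 CPM in vehicle and 633 in FAKi endothelial cells and *Nid2* was 152 and 123. *Nid1* was higher in fibroblasts (492 CPM) than in endothelial cells (344) in vehicle. In FAKi the 2 classes were near equal (342 and 341 CPM), and endothelial cells led without doublets and in cells with at least 1000 genes. *Fn1* was highest in fibroblasts in vehicle (355 CPM, pericytes 231) and in pericytes in FAKi (189 CPM, fibroblasts 90.7). *Sparc* was abundant in all 3 stromal classes, with 4937 CPM in vehicle fibroblasts, 4082 in pericytes and 3138 in endothelial cells, and 3439, 2751 and 3140 in FAKi.

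Collagen VI was a fibroblast group: all 5 of its 6 genes past the minimum were highest there in both libraries. *Col6a1*, *Col6a2* and *Col6a3* were 1455, 865 and 423 CPM in vehicle fibroblasts and 977, 672 and 327 in FAKi, and *Col6a6* and *Col6a5* were 332 and 58.0 in vehicle and 238 and 97.5 in FAKi. Of the 17 remaining collagens, 8 passed the minimum. *Col14a1*, which binds the surface of fibrils, was 805 and 573 CPM in fibroblasts and 498 and 520 in pericytes. *Col13a1*, a transmembrane collagen, was 373 and 326 CPM in endothelial cells and no higher than 5.2 and 4.0 in the next class. *Col16a1* was highest in fibroblasts (277 and 193 CPM) and *Col8a1*, a short-chain collagen of vessel walls, in pericytes (83.4 and 52.4 CPM), though in FAKi fibroblasts were at 49.6 CPM and led as a mean over cells and without doublets. *Col12a1* was highest in pericytes in vehicle (58.7 CPM) and in fibroblasts in FAKi (51.3 CPM). *Col7a1*, *Col9a2* and *Col20a1* were at most 11.9, 13.7 and 12.0 CPM in any class.

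Chains that assemble together did not always appear together. Because the genes of a pair may be captured unequally, each ratio was set beside the same ratio in other classes of the same library. Endothelial cells had 1.71 and 1.78 *Col4a1* UMIs per *Col4a2* UMI in vehicle and FAKi, pericytes 2.01 and 1.90, fibroblasts 2.29 and 2.33, and ductal cells 2.40 and 2.59. β-cells had 568 *Col4a1* and 18 *Col4a2* UMIs in vehicle (31.6 per UMI, 19.8 to 53.6) and 573 and 8 in FAKi (71.6, 36.1 to 167). Their *Col4a1* level was low, at 17.1 and 14.9 CPM, but UMIs lay in 378 of 1076 vehicle (35.1%) and 421 of 1336 FAKi β-cells (31.5%). In the shallower α-cells the shares were 5.13% and 5.30%, and in δ-cells 2.13% and 2.23%, at medians of 13126 and 13262.5 and of 12670.5 and 13782 UMIs against 30792.5 and 30427.5 in β-cells. With each cell thinned to 1000 UMIs, 21 of 1063 vehicle (1.98%) and 23 of 1320 FAKi β-cells (1.74%) held *Col4a1*, against 0 of 272 and 2 of 434 α-cells. The strand setting used in counting is not given in the sources used here, and exons of *Col4a1* and *Col4a2* overlap on opposite strands.

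A like imbalance was seen in collagen VI. In β-cells *Col6a3* was 10.8 CPM in vehicle (238 of 1076 cells, 22.1%) and 5.13 in FAKi (148 of 1336, 11.1%), whereas *Col6a1*, whose product normally joins it in a trimer, had 8 and 4 UMIs in the whole class. There were thus 44.8 and 49.3 *Col6a3* UMIs per *Col6a1* UMI, against 0.291 and 0.335 in fibroblasts. *Col6a6* was also present in β-cells, at 7.99 and 6.90 CPM. In α-cells *Col1a2* was 17.7 and 13.1 CPM and lay in 46 of 273 (16.8%) and 53 of 434 cells (12.2%), with 0.0448 and 0.0506 *Col1a1* UMIs per *Col1a2* UMI against 0.710 and 0.699 in fibroblasts.

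**Figure D2:**
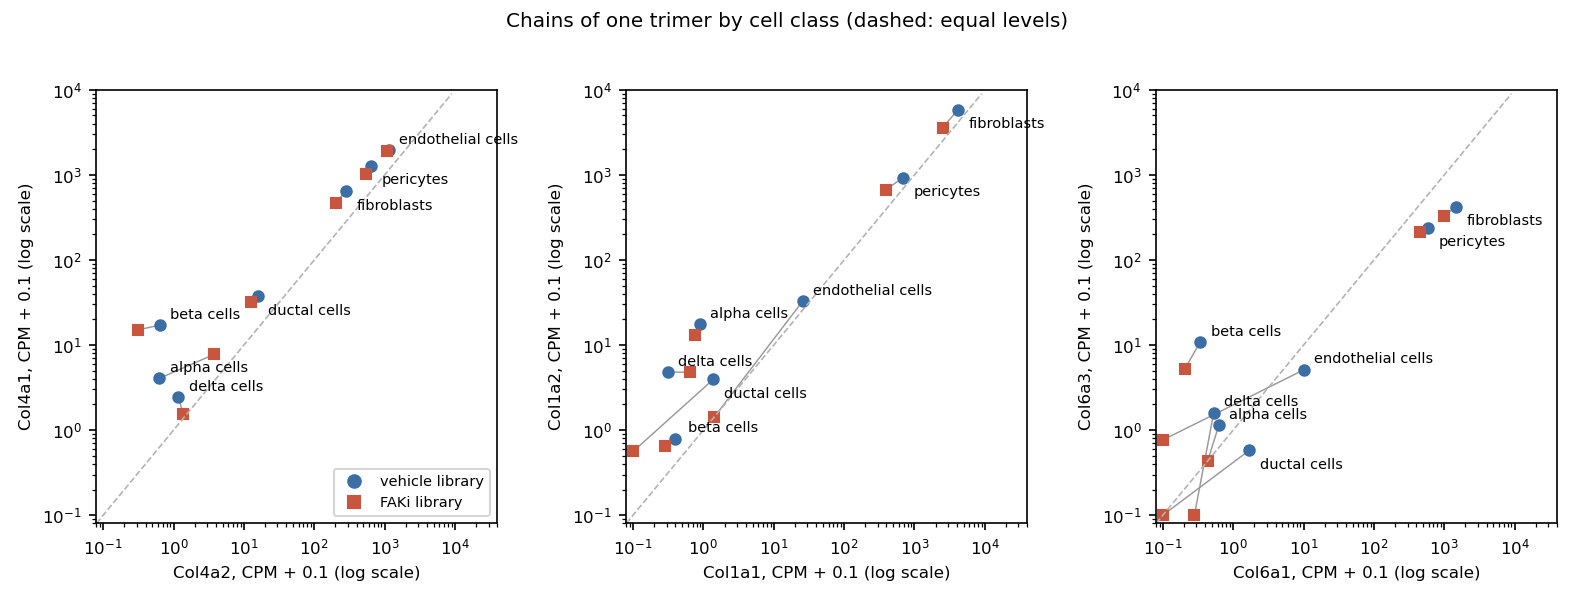
CPM of paired chains in each class, one chain on each axis, as CPM + 0.1 on log axes, with grey lines joining vehicle to FAKi. Stromal classes lie along a common diagonal for *Col4a1* and *Col4a2*, while β-cells lie far to the *Col4a1* side (31.6 and 71.6 UMIs per *Col4a2* UMI).

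Laminin chain ratios differed among the stromal classes. Endothelial cells had 1.14 and 1.24 *Lamb1* UMIs per *Lamc1* UMI, fibroblasts 0.712 and 0.609, and pericytes 0.142 and 0.205. Pericytes were the class with the most *Lamb2* (332 and 282 CPM). Endothelial cells had 0.913 and 0.943 *Lama4* UMIs per *Lamc1* UMI and fibroblasts 0.351 and 0.425. *Nid1* was nearly missing from ductal cells, with 0.0417 and 0.00847 UMIs per *Lamc1* UMI against 1.36 to 2.36 in the 3 stromal classes.

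The endothelial class joined 2 deposited clusters, numbered 3 and 11, which differed in matrix. Because the clusters were drawn from all genes, the difference is a description. In vehicle, cluster 3 (371 cells) had 2809 CPM of *Col4a1*, 1680 of *Col4a2*, 359 of *Lamc1*, 232 of *Nid2* and 559 of *Col13a1*, whereas cluster 11 (172 cells) had 437, 187, 45.2, 10.9 and 45.9. *Fn1*, *Col18a1* and *Lamb2* ran the other way, at 3.73, 5.81 and 108 CPM in cluster 3 and 151, 69.2 and 174 in cluster 11. The same directions were seen in FAKi, where *Col4a1* was 2247 and 379 CPM and *Fn1* was 4.03 and 199 in clusters 3 and 11. *Lama3* did not keep its direction, with 93.8 against 56.1 CPM in vehicle and 84.6 against 130 in FAKi. Cluster 3 held 68.3% of vehicle and 85.1% of FAKi endothelial cells.

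**Figure D3:**
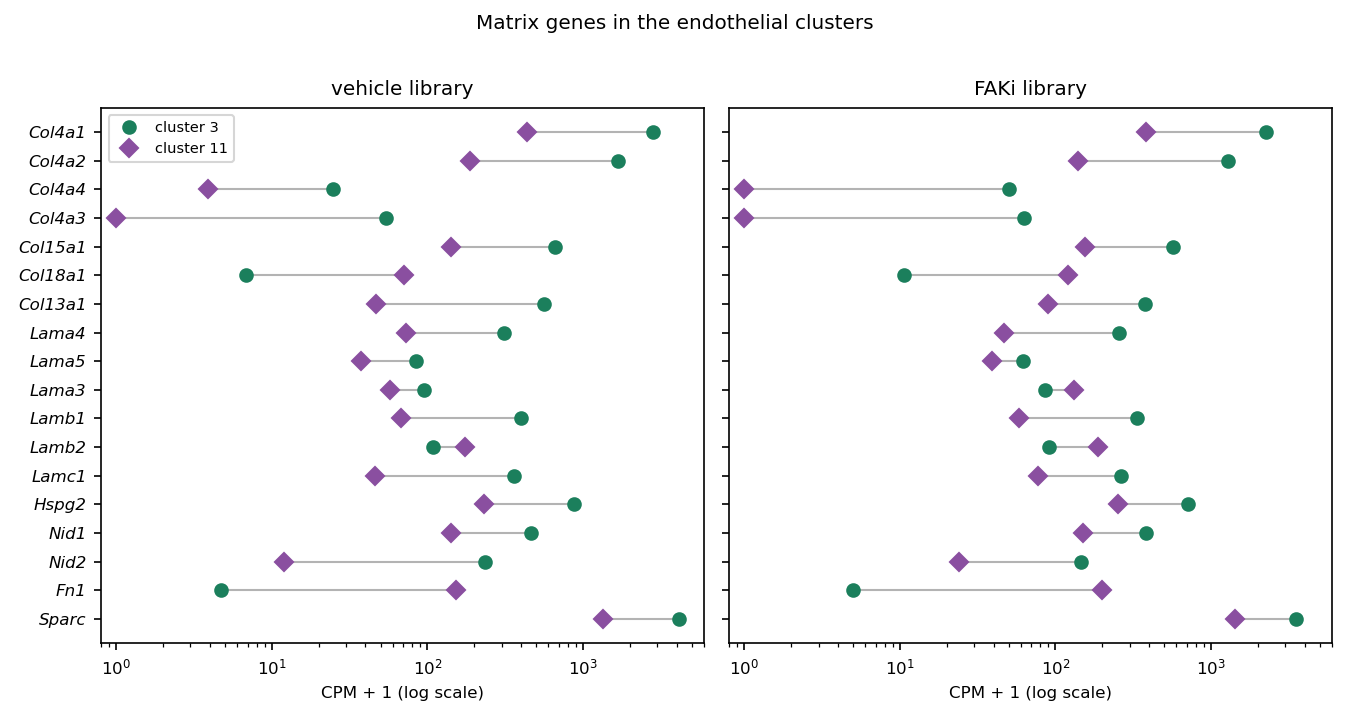
CPM + 1 (log axis) of matrix genes (rows) in endothelial cluster 3 (circles) and cluster 11 (diamonds), joined by lines, in the vehicle and FAKi libraries. For *Col4a1*, *Col4a2*, *Nid2* and *Col13a1* cluster 3 lies farther right, and for *Fn1*, *Col18a1* and *Lamb2* cluster 11 does.

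In the comparison of FAKi with vehicle, a gene was counted as higher or lower where its CPM differed at least 2-fold and it had at least 20 UMIs in that class over both libraries. Shares of all genes were computed at these limits over all cells of a class, and not for alternative settings or subsets of cells. In fibroblasts (264 and 63 cells), 40 matrix genes had enough UMIs. Of these 7 were lower, beside 7.83% of all genes, and 4 were higher, beside 4.03%. Counting differences of any size, 33 of the 40 ratios were below 1, 27 with an interval wholly below 1 and 4 wholly above, against 5605 of all 9997 genes below 1, 945 with an interval wholly below 1 and 542 wholly above, and the median log2 ratio, taken on CPM + 1, was −0.48 against −0.07 for all genes. An interval leaves out 1 more readily at high UMI counts, and matrix genes and all genes were not matched for UMIs, in fibroblasts or in pericytes. The fibrillar sum was 0.645 of its vehicle level (0.628 to 0.663), with *Col3a1* at 0.681, *Col1a2* at 0.614 and *Col1a1* at 0.605. The basement membrane sum was 0.707 of vehicle (0.665 to 0.751), and all 15 of its genes with enough UMIs had ratios below 1, 11 of them with an interval wholly below 1.

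*Fn1* was the lower gene with the most UMIs in fibroblasts, with 355 CPM (893 UMIs) in vehicle and 90.7 (53 UMIs) in FAKi, a ratio of 0.256 (0.190 to 0.338). It was found in 86 of 264 and 15 of 63 cells, and 162 of its 893 vehicle UMIs lay in 1 cell, and with the top cell of each library left out the levels were 292 and 75.1 CPM. The others were the minor collagen IV chains *Col4a4* (0.491, 0.314 to 0.739), *Col4a3* (0.434, 0.231 to 0.753) and *Col4a6* (0.404, 0.179 to 0.799), and *Col8a2* (0.187, 0.0220 to 0.716). *Lamc3* (0.485, 0.202 to 1.009) and *Col7a1* (0.431, 0.0841 to 1.39) had intervals that include 1. The higher genes were *Col18a1* (2.30, 1.67 to 3.15), *Col8a1* (2.78, 1.68 to 4.53), *Col25a1* (2.39, 0.987 to 5.47) and *Col28a1* (6.08, 3.13 to 12.1).

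Cell makeup moved with these values. Cells with a Schwann-cell marker UMI were 17 of 264 vehicle fibroblasts (6.44%, 3.80 to 10.1) and 13 of 63 FAKi fibroblasts (20.6%, 11.5 to 32.7), and they held 17 of 17 and 23 of 24 *Col28a1* UMIs. The summed Schwann list was 42.1 and 196.8 CPM. Without those cells the *Col18a1* ratio was 1.17 and that of *Col8a1* 1.92. Among fibroblasts with a UMI of *Dcn*, the fibroblast proteoglycan decorin, the fibrillar sum was 17394 CPM in vehicle and 13857 in FAKi (0.797), *Col18a1* was 1.13 of vehicle, *Col8a1* 1.64 and *Fn1* 0.325, and 2 genes were higher and 2 lower. Insulin UMIs took 6.12% of fibroblast UMIs in vehicle and 12.5% in FAKi, and their part in the lower ratios was not tested beyond leaving the 20 most abundant genes out of the totals, which gave a fibrillar ratio of 0.709.

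In pericytes (137 and 64 cells), 33 genes had enough UMIs. Of these 2 were lower (6.69% of all genes), *Col4a5* (0.290, 0.0567 to 0.926) and *Col12a1* (0.412, 0.144 to 0.968), and 0 were higher (3.0%). Their median log2 ratio was −0.38 against 0.00 for all genes, and 27 ratios were below 1, against 3350 of all 6723 genes. The interval lay wholly below 1 for 10 genes and wholly above for 1, *Col4a4* (1.70, 1.02 to 2.78), against 360 and 305 of all genes. For *Col12a1* 4 of the 6 FAKi UMIs lay in 1 cell, and without the top cell of each library the ratio was 0.164. The fibrillar sum was 0.612 of vehicle (0.565 to 0.662), with *Col3a1* at 0.589, and the basement membrane sum was 0.852 (0.782 to 0.927). The mesenchymal marker list went from 22251 to 15055 CPM in pericytes and the median cell from 4641 to 3400.5 UMIs, and their part in these ratios was not tested. *Col18a1*, the pericyte-led gene that was higher in FAKi fibroblasts, was 0.570 of vehicle here. Without the pericyte with the most fibrillar UMIs in each library 4 genes were lower, and as a mean over cells 7 were (shares of all genes not computed).

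The endothelial basement membrane sum was 0.977 of vehicle (0.952 to 1.003). *Col4a1* and *Hspg2* were each 0.987 of vehicle, *Nid1* 0.990 and *Sparc* 1.00. Within cluster 3 the sum went from 7487 to 5964 CPM (0.797, 0.775 to 0.818) and within cluster 11 from 1474 to 1478 (1.00, 0.897 to 1.12). Collagen IV was 0.796 in cluster 3 and 0.818 (0.677 to 0.982) in cluster 11, and the laminins were 0.805 and 1.16 (0.962 to 1.40). Cluster 3, the cluster with the higher level, made up more of the class in FAKi (85.1%) than in vehicle (68.3%). Other genes moved within the clusters. In cluster 3 the 7 endothelial markers ran from 0.750 of vehicle (*Pecam1*) to 1.17 (*Esm1*), with 4 intervals wholly below 1, and *Ins2* was 1.65. In cluster 11 the markers ran from 0.863 (*Plvap*) to 1.49 (*Flt1*) apart from *Esm1*, a gene high in cluster 3, which went from 25.5 to 291 CPM, and *Ins2* was 0.131 of vehicle (30748 to 4031 CPM). Their part in the basement membrane sums was not tested. Of 28 endothelial genes with enough UMIs, 2 were higher (1.53% of all genes): *Col4a4* (61 UMIs in each library, in 46 of 543 and 41 of 269 cells, 2.52, 1.74 to 3.65) and *Col25a1* (12 and 10 UMIs, 2.10, 0.812 to 5.30, an interval that includes 1).

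The 8 lower endothelial genes (4.86% of all genes) were stromal collagens at low level. *Col6a1* had 38 UMIs in vehicle and 0 in FAKi, but 32 of the 38 lay in 1 cell, and without it the vehicle level (1.61 CPM) was under the 2.0 CPM that 0 counts allow in the FAKi class, so no fold is given. *Col1a2* (0.0403), *Col3a1* (0.0430), *Col1a1* (0.0514), *Col5a2* (0.114), *Col6a2* (0.126), *Col6a3* (0.132) and *Col8a1* (0.216) made up the rest. In vehicle 114 of 125 *Col1a2*, 101 of 117 *Col3a1* and 91 of 98 *Col1a1* UMIs lay in 1 cell, and without the top cell of each library their ratios were 0.227, 0.159 and 0.356, from at most 2 FAKi UMIs. With the cell with the most fibrillar UMIs left out of each library, 2 endothelial genes were lower (share of all genes not computed). Whether these UMIs came from stromal cells or free RNA was not tested.

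**Figure D4:**
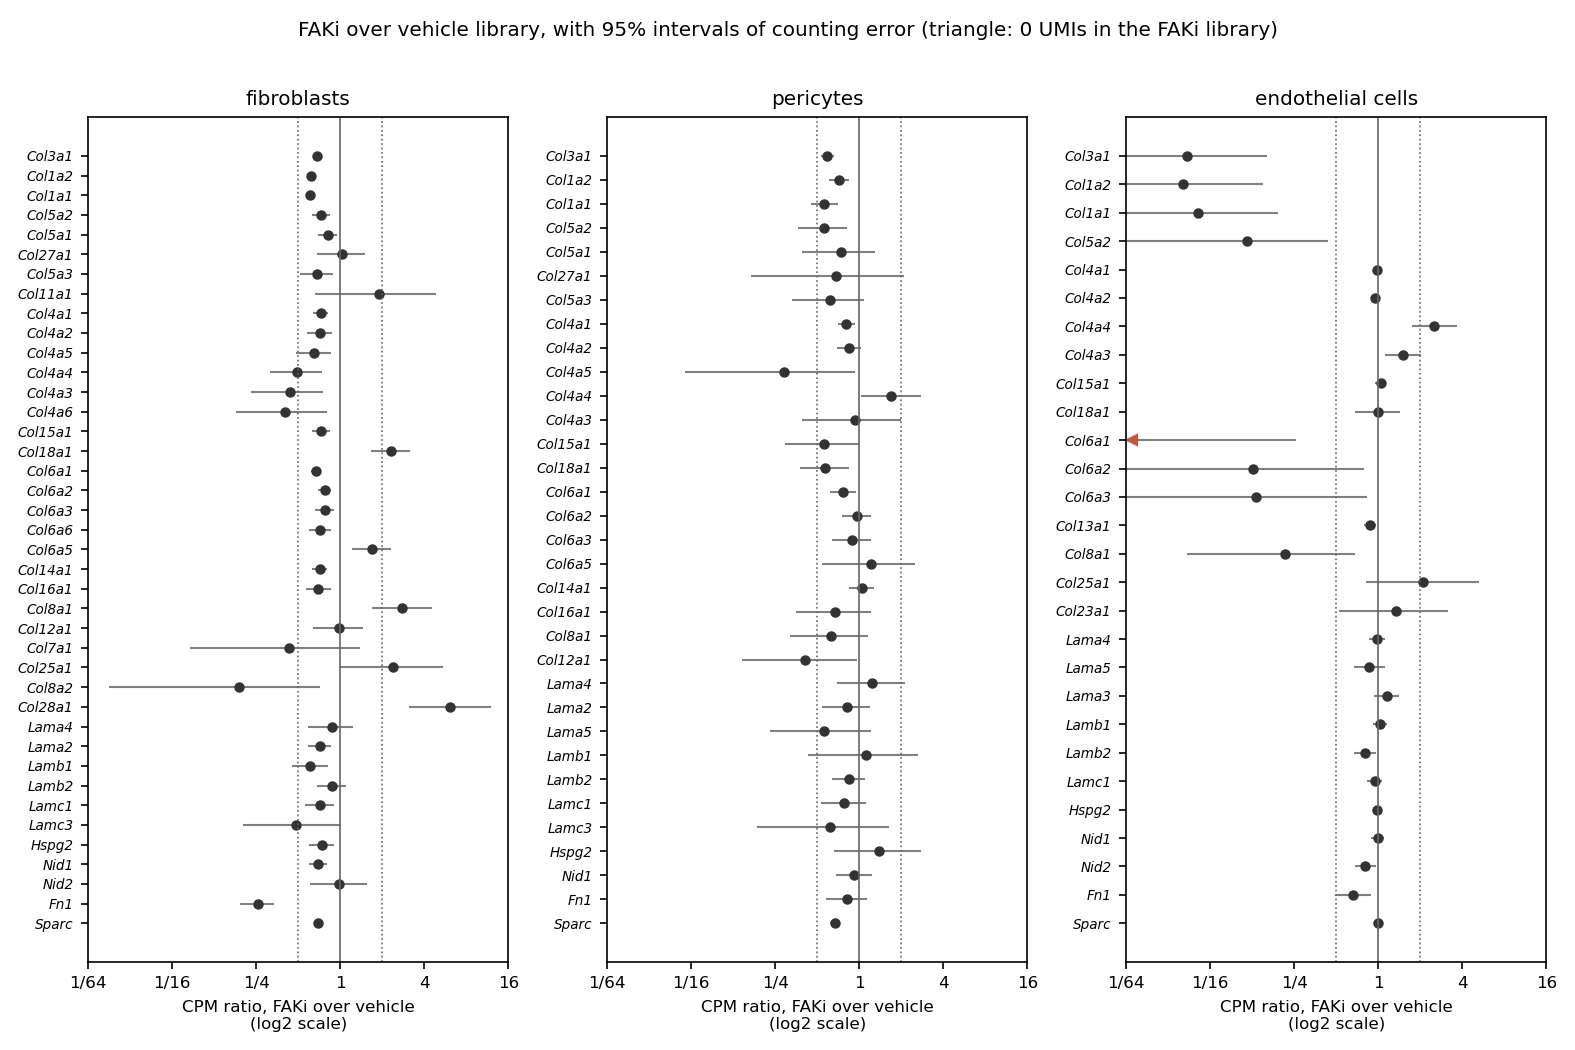
FAKi over vehicle CPM ratio of matrix genes in fibroblasts, pericytes and endothelial cells on a log2 axis, with exact 95% counting intervals and dotted lines at 2-fold, and a triangle for *Col6a1*, which had 0 FAKi UMIs. Most fibroblast and pericyte points lie below 1 (33 of 40 and 27 of 33), while the major endothelial basement membrane genes lie at 1.

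Ductal cells had 4 lower genes of 26 (3.42% of all genes) and 0 higher (2.35%). The lower genes were *Col3a1* (25 UMIs in vehicle and 0 in FAKi, at least 2.90-fold lower), *Col1a2* (0.120, 0.00291 to 0.735), *Col23a1* (0.431, 0.0821 to 1.45) and *Col14a1* (0.493, 0.170 to 1.18), and the last 2 intervals include 1. In vehicle 8 of 25 *Col3a1* and 6 of 24 *Col1a2* UMIs lay in 1 cell, and 1 ductal gene was lower without doublets and 0 at a floor of 100 UMIs. Without its top cell vehicle *Col3a1* was 2.73 CPM, against the 1.38 CPM that 0 counts allow in FAKi. The mesenchymal marker list went from 213 to 74.1 CPM in ductal cells, and its part in these ratios was not tested. The ductal basement membrane sum was 0.939 of vehicle, with *Lama3* at 0.613, *Lamb3* at 0.683 and *Col4a6* at 1.95.

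Among endocrine classes, β-cells had 5 lower genes of 18 (2.38% of all genes) and 0 higher (1.24%), though as a mean over cells 5 were higher. *Col6a3* carried most of the UMIs and went from 10.8 to 5.13 CPM (0.477, 0.399 to 0.569). It was lower in β-cell cluster 0 (12.4 to 5.50 CPM) and cluster 1 (9.01 to 5.34). In cluster 10 *Col6a3* went from 3.51 (1.81 to 6.14) to 1.58 CPM (0.515 to 3.70), on 12 and 5 UMIs, and the intervals overlap. The other lower genes were *Sparc* (0.271), *Col3a1* (0.116), *Col8a1* (0.445) and *Col4a2* (0.385), all at low level. The mesenchymal marker list went from 8.44 to 2.40 CPM in β-cells and from 14.6 to 3.79 in δ-cells. Its part in the ratios of these classes was not tested. *Sparc* differed by cluster, from 1.68 to 1.31 CPM in cluster 0, from 4.30 to 0.829 in cluster 1 and from 22.0 to 1.27 in cluster 10, which held 75 of the 144 vehicle UMIs, and 24 of the 144 lay in 1 cell. α-cells had 2 higher genes of 15 (2.21%) and 0 lower (1.27%): *Sparc* went from 11 to 62 UMIs (3.56, 1.86 to 7.49), 17 of the 62 in 1 cell, and *Col4a2* from 2 to 22 (6.94, 1.71 to 60.9), 6 of the 22 in 1 cell. Without doublets 1 α-cell gene was higher. δ-cells had 1 higher gene of 12 (1.21%), *Col25a1* (2.70, 0.944 to 9.41), and 2 lower (1.77%), of which *Sparc* was at 0.435. The δ-cell *Sparc* ratio was 1.43 as a mean over cells, and 9 of 31 vehicle and 5 of 16 FAKi UMIs lay in 1 cell. The basement membrane sums were 0.847 of vehicle in β-cells, 1.5 in α-cells (1.20 to 1.89, with 12 of 46 FAKi *Col4a1* UMIs in 1 cell) and 0.896 in δ-cells.

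Genes that make, cross-link, cut and bind matrix were read from lists chosen with earlier results of these data known. Fibroblasts led for 7.44% of all genes, pericytes for 14.7%, ductal cells for 23.4%, endothelial cells for 15.1% and macrophages for 6.71%. Of 22 collagen biosynthesis genes past 100 UMIs, 15 were highest in vehicle fibroblasts, as were 3 of 5 cross-linking genes, 7 of 13 proteases and their inhibitors and 10 of 16 other fibroblast matrix genes. Of 9 other basement membrane genes, 3 were highest in pericytes, 3 in ductal cells, 2 in endothelial cells and 1 in fibroblasts. Of the matrix receptors, 3 of 9 were highest in ductal cells, 3 in pericytes and 1 each in endothelial cells, fibroblasts and macrophages. In FAKi fibroblasts, where 4.03% of all genes were higher and 7.83% lower, 1 of 21 biosynthesis genes was higher and 1 lower (median log2 ratio −0.21), and 3 of 16 other fibroblast matrix genes were higher and 3 lower (median −0.40). Of 6 cross-linking genes 0 were higher and 1 lower, of 10 proteases and inhibitors 1 was higher and 2 lower, of 7 other basement membrane genes 1 was higher and 1 lower, and 0 of 8 receptors passed either limit.

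Of the 21 biosynthesis genes, 16 had fibroblast ratios below 1, as did 5605 of all 9997 genes. *Serpinh1*, a collagen chaperone, was 1339 CPM in vehicle and 1028 in FAKi fibroblasts, and *Adamts2*, which removes the amino-terminal propeptide, 430 and 207. *P4hb*, a subunit of the enzyme that hydroxylates collagen proline, was 260 CPM in vehicle and 263 in FAKi fibroblasts, and *Ppib*, a collagen-folding isomerase, was 780 and 746. *Loxl1*, a cross-linking oxidase, was 377 and 272 CPM in fibroblasts and its relative *Loxl2* 113 and 72.5 in pericytes. *Tgm2*, a transglutaminase, was 325 and 209 CPM in fibroblasts, *Mmp2*, a gelatinase, 963 and 469, and *Timp2*, its inhibitor, 1054 and 749. The proteoglycans *Dcn*, *Bgn* and *Lum* were 9172, 2668 and 1839 CPM in vehicle and 6556, 1824 and 1574 in FAKi. *Timp3*, a matrix-bound protease inhibitor, was 1694 and 1683 CPM in endothelial cells, and *Tinagl1*, a basement membrane glycoprotein, 815 and 604 in pericytes. *Mia3*, which helps load collagen into transport vesicles, was highest in β-cells (188 and 168 CPM). Among receptors, *Dag1*, dystroglycan, was 185 and 137 CPM in pericytes and *Cd47* 537 and 628 in endothelial cells, which also led for *Npnt* (30.1 and 9.98 CPM), an integrin ligand of basement membranes. *Sdc4*, a proteoglycan receptor, was 879 and 677 CPM in ductal cells, which also led for *Agrn* (152 and 133 CPM), a basement membrane proteoglycan.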

How the data were processed

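Islets handpicked from 5 mice per treatment were dissociated and run on a 10x Genomics 3′ assay, with 4 sequencing lanes per library counted as 1 sample. Per the labels and the study's methods, the authors aligned reads to mm10 with Cell Ranger, filtered and merged cells with Seurat 3.1 and deposited raw UMI counts per gene and cell, with cell classes, clusters and the percent of mitochondrial UMIs per cell. The deposited percent of mitochondrial UMIs was at most 8.00. The labels give 8832 vehicle and 8437 FAKi cells as used for sequencing, and the deposited table holds 3776 and 3183, so levels cover the cells that passed the authors' filters.

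Here the deposited counts were added up over the cells of each class in each library and scaled to CPM (Python 3.11.15, numpy 2.4.6, pandas 2.3.3). Exact Poisson intervals were given for levels, Clopper-Pearson intervals for shares and exact conditional binomial intervals for ratios (scipy 1.17.1, 95%, counting error only). At 0 UMIs a floor of 3 counts per class and library was used. Classes with fewer than 20 cells in a library were not compared, and 7 classes with at least 10 matrix genes past 20 UMIs were compared between libraries. No cells were removed as doublets: scrublet (scanpy 1.11.5) marked 68 vehicle and 57 FAKi cells (1.80% and 1.79%), and results were recomputed without them. Scripts were tested on simulated data.

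The genes were selected by symbol, and this selection and the lists were chosen with earlier results of these data known. Named genes were all matrix genes with at least 100 UMIs, up to 5 higher and 5 lower in each class by UMIs, and from each pathway list the 3 with the most UMIs. The text names the further higher or lower genes of fibroblasts and endothelial cells, the endothelial cluster genes, and *Dcn*, *Mmp2*, *Agrn*, *Serpinh1*, *Adamts2* and the chain pairs where these fall outside that rule, chosen after their values were seen. Alternatives were another CPM total without the 20 most abundant genes, the mean over cells, cells with at least 1000 genes, thinning to 1000 UMIs, and floors of 5 and 100 UMIs or a 1.5-fold limit. Chosen after seeing the data were fibroblasts without Schwann-marker cells or with *Dcn*, single endothelial clusters and leaving out the cell with the most fibrillar UMIs or the most UMIs of a gene. Of the deposited gene names, 23 had turned into dates and 2 occurred more than once. Results for some genes are not reported here.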

Additional observations from a re-analysis of the deposited data

Results flagged for a closer look

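For 7 matrix genes the interval of the FAKi over vehicle ratio lay wholly above 1 in at least 1 class and wholly below 1 in another, with a difference of at least 2-fold in at least 1 of them. The differences between classes were not tested. *Col18a1* was 2.30 of vehicle in fibroblasts and 0.570 in pericytes, but in fibroblasts it was 1.17 without Schwann-marker cells, which were 6.44% of vehicle and 20.6% of FAKi fibroblasts, and 1.13 in *Dcn* cells. *Col4a2* was 6.94 in α-cells (2 vehicle and 22 FAKi UMIs), 0.385 in β-cells and 0.712 in fibroblasts. *Col4a3* was 1.51 in endothelial cells and 0.434 in fibroblasts, and *Col4a4* was 2.52 in endothelial cells, 1.70 in pericytes and 0.491 in fibroblasts. Within cluster 3, which held all endothelial *Col4a3* UMIs, the *Col4a3* ratio was 1.17 (0.868 to 1.56), an interval that includes 1. The *Col4a4* ratio there was 2.08 (1.42 to 3.03). Cluster 3 made up 68.3% of vehicle and 85.1% of FAKi endothelial cells. *Col4a6* was 1.95 in ductal cells and 0.404 in fibroblasts. *Col8a1* was 2.78 in fibroblasts (1.92 without Schwann-marker cells and 1.64 in *Dcn* cells), 0.445 in β-cells and 0.216 in endothelial cells. *Sparc* was 3.56 in α-cells, 0.271 in β-cells, 0.435 in δ-cells, 0.698 in ductal cells, 0.697 in fibroblasts and 0.674 in pericytes. The δ-cell *Sparc* value was 1.43 as a mean over cells. In α-cells *Sparc* lay in 9 of 273 vehicle and 15 of 434 FAKi cells, and without doublets only 1 α-cell gene was higher. The endothelial marker list went from 11.9 to 35.8 CPM in α-cells, and its part in the *Sparc* and *Col4a2* ratios there was not tested.

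The B-cell class was used in no comparison, since its FAKi library held 9 cells. In vehicle, *Lamb3* was 37.9 CPM (24 UMIs in 22 of 113 cells) and *Col6a4*, a collagen VI chain, 23.7 CPM (15 UMIs in 9 cells), both above the 4.74 CPM that a count of 0 allows.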

How the results depend on the processing

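No paired analysis was possible because each treatment had 1 library, whose lanes are not replicates, and no test was run. Fibroblasts stayed the leading fibrillar class and endothelial cells the leading basement membrane class in the settings of whole classes given next. Endothelial cluster 11 alone had 1474 and 1478 CPM of basement membrane genes in vehicle and FAKi. That was below pericytes (3282 and 2795) and fibroblasts (2995 and 2116). Of the 44 genes, 38 to 42 kept their leading class without the 20 most abundant genes, as a mean over cells, without doublets and in cells with at least 1000 genes, and 37 and 36 (vehicle and FAKi) as mean UMIs per cell without scaling. The endothelial basement membrane sum was 6164 and 6250 CPM (vehicle and FAKi) without the 20 most abundant genes, 5771 and 5710 as a mean over cells, 5662 and 5803 without doublets and 5832 and 5775 after thinning. The fibroblast fibrillar sum was 19942 and 14143, 16653 and 11622, 17438 and 12204, and 17359 and 12436 in the same order, and 16641 and 10200 without the top fibrillar cell.

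Ratios of FAKi over vehicle moved as follows. Without the 20 most abundant genes the endothelial and fibroblast basement membrane ratios were 1.01 and 0.777 and the fibroblast fibrillar ratio 0.709. Without doublets these were 1.03, 0.751 and 0.700. As a mean over cells the fibrillar ratio was 0.698 in fibroblasts and 0.506 in pericytes, and without the top fibrillar cell 0.613 and 0.559. In endothelial cluster 3 the basement membrane ratio was 0.797. Without Schwann-marker cells the fibroblast fibrillar ratio was 0.683, and in *Dcn* cells it was 0.797 and the basement membrane ratio 0.776. *Nid1* had 0 UMIs per *Lamc1* UMI in FAKi ductal cells without doublets. Of the single genes *Sparc* in δ-cells reversed, at 1.43 as a mean over cells. *Col4a4* in endothelial cluster 11, *Col28a1* in *Dcn* fibroblasts and *Col6a1* in endothelial cells without its top cell had too few UMIs for a ratio.

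Counts of genes past 2-fold depended on the floor. The share of all genes past each limit was not computed for the settings below, so these counts show only how far the calls moved. At 100 UMIs they were, higher and lower, 1 and 4 in fibroblasts, 1 and 3 in endothelial cells, 0 lower in pericytes, 0 higher in α-cells, 2 lower in β-cells, 0 and 0 in δ-cells and 0 lower in ductal cells. At 5 UMIs they were 14 lower in endothelial cells, 5 and 1 in α-cells, 1 and 13 in β-cells, 6 lower in δ-cells and 2 and 12 in ductal cells. At 1.5-fold they were 11 lower in fibroblasts, 1 and 11 in pericytes, 6 higher in α-cells, 2 and 5 in δ-cells and 3 higher in ductal cells. Without doublets they were 1 higher in α-cells, 1 lower in δ-cells and 1 lower in ductal cells. As a mean over cells they were 5 higher in β-cells, 1 higher in ductal cells and 7 lower in pericytes, and without the 20 most abundant genes 1 higher in ductal cells. Without the top fibrillar cell they were 2 lower in endothelial cells and 4 lower in pericytes. They were 1 and 1 in endothelial cluster 3, 4 lower in cluster 11, 1 higher in fibroblasts without Schwann-marker cells and 2 and 2 in *Dcn* fibroblasts.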
